A study of Mus musculus with 6 samples.

Results

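The genes Stat3, Stat4, Stat5a, Stat5b, Stat6, Cish, Socs1, Socs2 and Socs3 were followed through their open chromatin in tumor-infiltrating CD8 T cells. A region was taken as a member when it overlapped the body of one of these 9 protein-coding genes, or when it lay outside all genes and had one of them as the nearest within 100 kb. By this rule 81 of the 74686 regions of the deposited count table were members, and no region fell to more than 1 of the genes. Measured values played no part in this assignment of regions, but the 9 genes were chosen with earlier results of these data known. ATAC-seq, in which a transposase cuts and tags accessible DNA, was applied to OT1 cells, which are CD8 T cells whose transgenic receptor recognises a peptide of ovalbumin. They were sorted on CD8 and CD45.1 out of B16-OVA-GP61 tumors; B16 is a melanoma line of the mouse. The 3 libraries of one group came from tumors without SMARTA cells and the 3 of the other from tumors with SMARTA cells, which are CD4 T cells with a transgenic receptor. All 6 libraries thus share the OT1 receptor and the tumor line. The labels give no animal, age, host genotype or day, and nothing in them says that replicates were separate animals, so a p-value here speaks only of the spread among these 6 libraries, part of which may be technical.

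Cytokines such as interleukin-2, interleukin-6 and interleukin-12 bind receptors whose associated JAK kinases phosphorylate STAT proteins, and the STAT proteins then enter the nucleus and bind DNA as dimers. In T cells STAT4 acts below interleukin-12, STAT5A and STAT5B below interleukin-2, interleukin-7 and interleukin-15, STAT3 below interleukin-6, interleukin-10 and interleukin-21, and STAT6 below interleukin-4. CIS (Cish) and the SOCS proteins are induced by STATs and feed back on the receptors and kinases, so the set holds both the transducers of the signal and its brakes.

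With SMARTA cells, accessibility fell at 9 member regions, all inside the bodies of the STAT genes, and rose at 3, one each at Stat6, Socs1 and Socs3. The closed regions were 4 in Stat4, 3 in Stat3, and 1 each in Stat5a and Stat5b, and their log2 folds ran from -1.90 to -1.05. A region is called closed or opened here where edgeR's quasi-likelihood test over all 74686 regions gave an adjusted p under 0.05, and a negative log2 fold means lower accessibility with SMARTA cells. Closed regions were 11.1% of the 81 members against 10.4% of all regions, and opened regions 3.70% against 4.68%, so the 9 genes as a set were called about as often as regions at large (15.1% in either direction). The median log2 fold of the 81 regions was -0.06, against 0.01 over all regions. The groups did not overlap in 19 member regions that were lower (23.5%, against 18.5% of all regions) and in 14 that were higher with SMARTA cells (17.3% against 15.7%), out of 34.2% of all regions in either direction. Leaving out single libraries changed these counts: 5 member regions closed once replicate 3 lacking SMARTA cells was dropped, and 0 opened once replicate 2 lacking them was dropped. Dropping replicate 1 or 3 lacking SMARTA cells, or replicate 3 with them, left 1 opened. Dropping replicate 2 with SMARTA cells gave 12 closed and 5 opened, in a fit that closed 11.3% and opened 5.7% of all regions. For the other fits without 1 library, here and below, the shares of all regions called were not counted. Their counts therefore only describe the members.

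**Figure D1:**
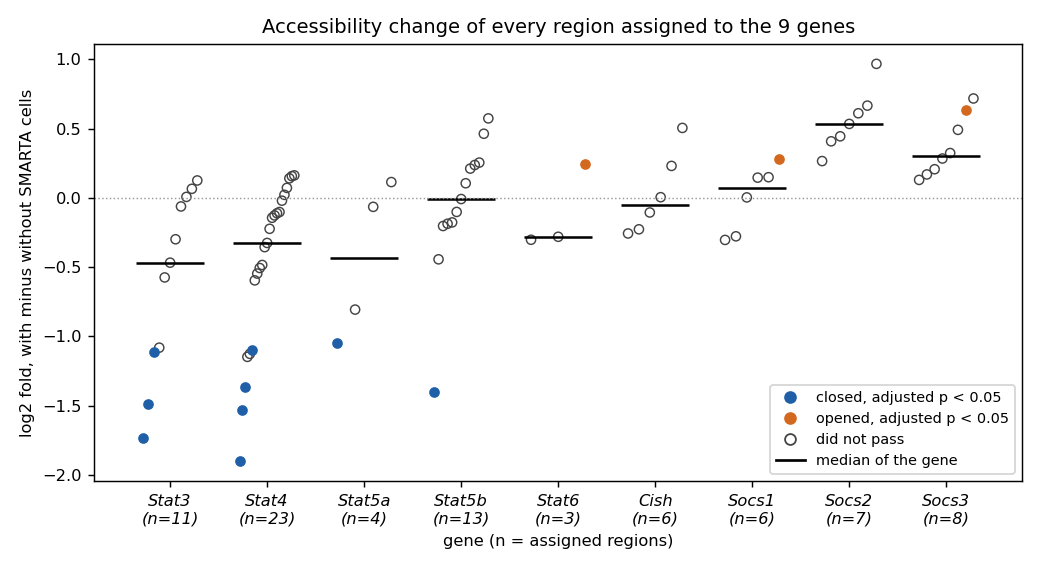
Log2 fold of accessibility, with minus without SMARTA cells (vertical axis), for each of the 81 regions, by gene (horizontal axis, with the number of regions), where each point is 1 region and the bar is the gene's median. All 9 closed regions belong to Stat3, Stat4, Stat5a and Stat5b, while all 7 Socs2 and all 8 Socs3 points lie above 0 and 1 of them passed.

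Of the 54 regions of the 5 STAT genes, 9 closed (16.7%, against 10.4% of all regions), 1 opened (1.85% against 4.68%) and 44 did not pass, with a median log2 fold of -0.19. DESeq2 called 10 of the 54 closed and 2 opened. Of the 27 regions of Cish, Socs1, Socs2 and Socs3, 2 opened (7.41%), 25 did not pass and 0 closed by edgeR, with a median of 0.27. None of these 27 had a lower value at an unadjusted p under 0.05 either (0 of 27, against 8 with a higher one), and DESeq2 called 0 closed and 1 opened. The difference between these gene groups was not tested. The groups also differ in position, with 51 of the 54 STAT regions inside genes against 8 of the 27 others. The shares of all regions at an unadjusted p under 0.05, or called by DESeq2, were not counted. Such counts, here and below, therefore only describe the members.

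Library totals over the regions ran from 16595779 to 27182809 counts, and the biological coefficient of variation was 18.0%. Replicate 2 with SMARTA cells stood apart from its group mates on the second principal component (19.2% of the variance). It also had the fewest counts, with a median of 62 per region against 81 and 108 in its group mates. Several results in which it is lowest, though not all, are given with and without it. Of 10 CD8 T cell markers all had regions, with a summed 2168 to 2305 CPM (counts scaled to library size) without and 1914 to 2339 with SMARTA cells. Of other cells' markers, Tyr and Tyrp1 of melanoma, Ms4a1 and Cd79a of B cells, Lyz2, C1qa, C1qb and Xcr1 of myeloid cells, Cxcr2 of neutrophils and Col3a1 of fibroblasts had no region. The summed level of the endothelial and fibroblast list (6 of 7 genes with regions) was 192 to 205 CPM without and 142 to 153 with SMARTA cells, the B cell list (5 of 7) 115 to 158 and 89.9 to 122, the melanoma list (5 of 7) 267 to 285 and 283 to 314, the myeloid list (7 of 11) 99.9 to 108 and 92.1 to 109, the neutrophil list (3 of 4) 14.3 to 15.5 and 13.1 to 18.0, the NK cell list (3 of 3) 451 to 479 and 472 to 494, and the list of CD4 and regulatory T cells (5 of 5) 278 to 324 and 280 to 342. The lists differ in number of regions, so their sums cannot be ranked. Per region, over all 6 libraries, the CD8 list (178 regions) held 10.75 to 13.14 CPM. The NK cell list (18 regions) held 25.08 to 27.44 and the melanoma list (13) 20.54 to 24.13. Lower were the CD4 list (9.58 to 11.8), the myeloid list (6.14 to 7.25) and the endothelial and fibroblast list (5.27 to 7.61). The B cell list held 3.46 to 6.10 and the neutrophil list 2.62 to 3.60. The endothelial and fibroblast list was lower in each library with SMARTA cells, in the direction of the closed STAT regions, and its part in them was not tested. In these sorted samples a change in the mix of cells and a change within each cell cannot be told apart.

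Start-site sequences are shown for 4 members, because the regions over them are the reference points for the gene bodies described next. RefSeq (GRCm38.p6) lists 11 promoters for 8 of the 9 genes, from 250 bases before to 50 after a start, and Socs2 has no entry. They were searched for TTCNNNGAA, the palindrome that STAT dimers are known to bind, which reads the same on both strands, and for the form with 1 more free base between the same arms. The first is in 2722 of 32817 RefSeq promoters of this length (8.29%) and the second in 2279 (6.94%). Cish and Socs3 were the 2 of 8 members with a match to the first, and 0 of 8 had one to the second. Counted by promoter, as the shares above are, 2 of the 11 member promoters matched the first. Cish holds a pair, TTCCTGGAA beginning at the annotated start and TTCTTGGAA beginning 11 bases after it, and Socs3 holds TTCTTAGAA beginning 154 bases before its start. Stat6 is printed because its start-site region was the only one called, and Stat3 because its start did not pass while 3 regions inside the gene closed. Capitals mark the matches, the Stat3 and Socs3 genes lie on the minus strand and all sequences read 5′ to 3′.
Cish, chr9:107296409-107296708, plus strand: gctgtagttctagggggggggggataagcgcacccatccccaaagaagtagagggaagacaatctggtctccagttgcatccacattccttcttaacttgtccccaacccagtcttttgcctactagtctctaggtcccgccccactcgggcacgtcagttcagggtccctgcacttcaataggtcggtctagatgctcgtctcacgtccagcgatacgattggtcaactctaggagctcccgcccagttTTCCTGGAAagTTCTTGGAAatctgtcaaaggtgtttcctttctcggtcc
Socs3, chr11:117969317-117969616, minus strand: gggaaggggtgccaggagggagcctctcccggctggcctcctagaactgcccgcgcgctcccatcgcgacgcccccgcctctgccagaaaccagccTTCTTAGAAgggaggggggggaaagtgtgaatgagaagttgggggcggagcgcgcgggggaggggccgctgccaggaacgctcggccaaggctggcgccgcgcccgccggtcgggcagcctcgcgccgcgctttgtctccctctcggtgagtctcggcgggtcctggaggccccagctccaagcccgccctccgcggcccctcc
Stat6, chr10:127642736-127643035, plus strand: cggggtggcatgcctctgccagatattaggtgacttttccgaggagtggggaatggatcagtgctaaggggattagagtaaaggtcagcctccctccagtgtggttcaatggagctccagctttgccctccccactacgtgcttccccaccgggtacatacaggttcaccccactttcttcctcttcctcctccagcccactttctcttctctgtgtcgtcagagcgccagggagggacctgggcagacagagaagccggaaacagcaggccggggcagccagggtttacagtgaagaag
Stat3, chr11:100939491-100939790, minus strand: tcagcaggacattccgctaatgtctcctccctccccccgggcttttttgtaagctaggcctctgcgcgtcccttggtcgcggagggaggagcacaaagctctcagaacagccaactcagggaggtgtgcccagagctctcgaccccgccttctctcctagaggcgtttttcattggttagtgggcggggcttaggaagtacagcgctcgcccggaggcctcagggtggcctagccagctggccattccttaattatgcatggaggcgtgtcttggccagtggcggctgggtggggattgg

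Stat4, the transducer of interleukin-12 signals toward interferon gamma, spans 120 kb on chromosome 1 (51987106 to 52107189) and held 23 regions, all inside the gene. The count table has no region within 1 kb of its upstream RefSeq start, and the region nearest to the downstream start lies 0.40 kb past it. That region measured 24.4, 30.9 and 33.4 CPM without SMARTA cells and 28.6, 22.3 and 30.3 with them, so the groups overlapped (log2 fold -0.13 ± 0.16 SE, edgeR adjusted p = 0.65). The most accessible Stat4 region, 11.6 kb past that start, overlapped too, with 53.9, 54.7 and 54.8 CPM without and 60.7, 47.5 and 57.7 with SMARTA cells.

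Further into the gene 4 Stat4 regions closed. The one with the largest fold, 32.5 kb past the downstream start (chr1:52040563-52040963), measured 30.9, 31.5 and 27.8 CPM in the libraries without SMARTA cells and 12.4, 3.37 and 8.16 in those with them. All 3 libraries of one group lay above the other, and replicate 2 with SMARTA cells was the lowest. The log2 fold was -1.90 ± 0.34 (edgeR adjusted p = 0.0051), and -1.55 without that replicate (0.00036). The region with the smallest p, at 50.3 kb (chr1:52058371-52058771), measured 4.13, 5.19 and 4.38 CPM without and 1.53, 1.68 and 1.53 with SMARTA cells. Here the replicates of each group lay close together, and the fold was -1.53 ± 0.20 (edgeR adjusted p = 0.0010).

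Another closed Stat4 region, at 58.4 kb (chr1:52066394-52066794), measured 5.23, 6.92 and 5.46 CPM without and 2.55, 1.62 and 2.58 with SMARTA cells. Its log2 fold was -1.37 ± 0.23 (edgeR adjusted p = 0.0038). The fourth, at 70.6 kb (chr1:52078618-52079018), was the least accessible, with 1.99, 2.69 and 2.48 CPM against 0.764, 1.44 and 1.16. Its fold was -1.10 ± 0.28 (edgeR adjusted p = 0.026), a call that was lost in 4 of the 6 fits that left out 1 library, with adjusted p up to 0.10. The first 3 kept their call in all 6.

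These 4 lie in a run of 9 consecutive Stat4 regions between 52039243 and 52079018, picked after its values were seen, in which all 9 folds were negative (median -1.13) and 8 were lower with no overlap between the groups, as 18.5% of all regions were; since the run was chosen on these values, the counts only describe it. Between the closed ones, a region at 44.9 kb measured 12.1, 13.3 and 13.97 CPM without and 8.86, 1.68 and 7.30 with SMARTA cells, and a region at 47.8 kb measured 9.01, 9.38 and 9.51 against 5.19, 1.62 and 5.58. Neither passed (edgeR adjusted p = 0.10 and 0.050), and replicate 2 with SMARTA cells lay far below its mates in both. Without that replicate 6 Stat4 regions closed. Upstream of the run, the 9 regions from 51998538 to 52035301 included no call.

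**Figure D2:**
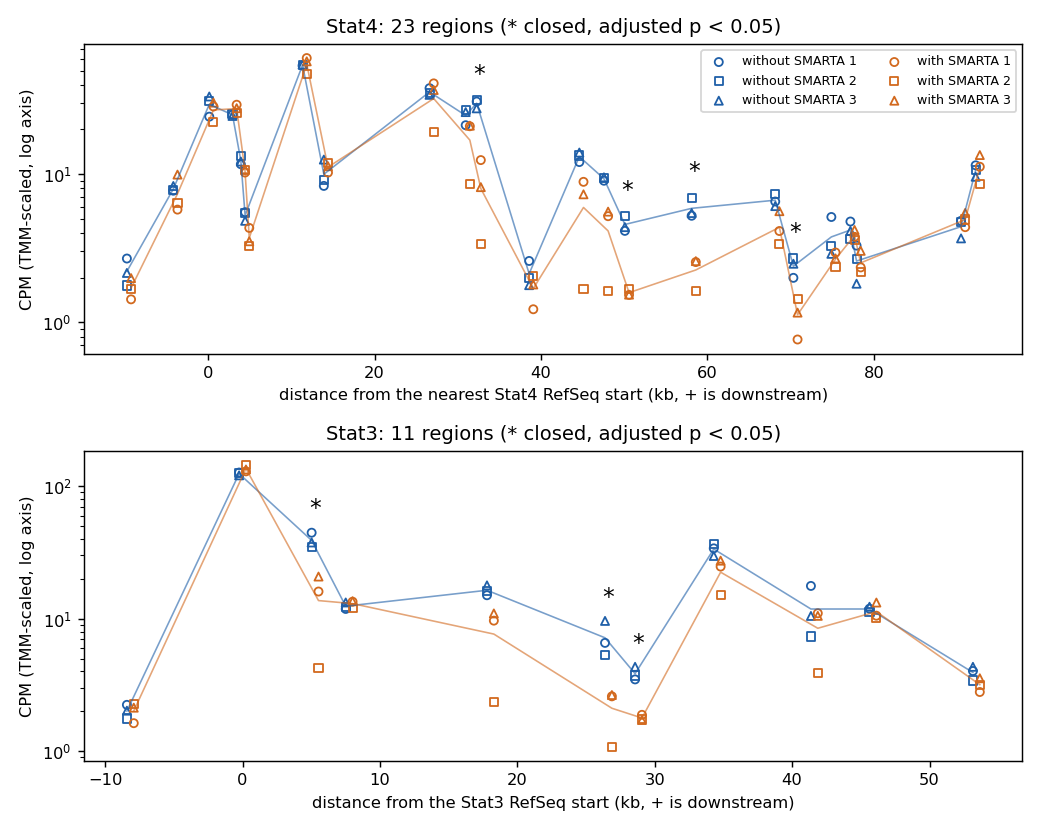
Accessibility in CPM (vertical axes, log scale) of each region of Stat4 (top) and Stat3 (bottom) against its distance from the nearest RefSeq start of the gene in kb (horizontal axes), where symbols are single libraries, lines join group means and stars mark closed regions. The closed regions lie between 32.5 and 70.6 kb in Stat4 and between 5.28 and 28.8 kb in Stat3, with regions that did not pass among them and replicate 2 with SMARTA cells (orange squares) often lowest.

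Stat3, the transducer of interleukin-6, interleukin-10 and interleukin-21 signals, spans 52.8 kb on chromosome 11 (100886806 to 100939594, minus strand) and held 11 regions, of which 3 closed. Its start-site region (chr11:100939342-100939742), which covers 252 of the 300 bases printed above, was the most accessible of the gene, with 127, 125 and 121 CPM without and 129, 144 and 134 with SMARTA cells. The group with SMARTA cells was the higher one there, but the fold of 0.13 ± 0.06 did not pass (edgeR adjusted p = 0.17). Downstream by 5.28 kb, a region (chr11:100934062-100934462) measured 44.6, 34.7 and 37.6 CPM against 16.04, 4.27 and 20.8. It closed with a log2 fold of -1.49 ± 0.40 (edgeR adjusted p = 0.031), and with -1.07 and adjusted p = 0.00093 without replicate 2 with SMARTA cells. Leaving out any of 4 other libraries ended that call (adjusted p = 0.061 to 0.10: each of the 3 without SMARTA cells, and replicate 1 with them), as did DESeq2 (0.086).

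The other closed Stat3 regions lay in the middle of the gene and kept their call whichever library was left out. At 26.6 kb from the start (chr11:100912708-100913108) the libraries measured 6.57, 5.34 and 9.63 CPM without and 2.60, 1.08 and 2.66 with SMARTA cells, a log2 fold of -1.74 ± 0.33 (edgeR adjusted p = 0.0066). At 28.8 kb (chr11:100910520-100910920) they measured 3.49, 3.73 and 4.34 against 1.88, 1.74 and 1.72, a fold of -1.11 ± 0.20 (edgeR adjusted p = 0.0049). The groups did not overlap in either. A region at 18.0 kb, with 15.0, 16.3 and 17.9 CPM against 9.67, 2.35 and 10.96, did not overlap between groups either but did not pass (edgeR adjusted p = 0.10).

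Stat5a and Stat5b, the paired transducers of interleukin-2 family signals, lie side by side with Stat3 on chromosome 11, and each had 1 closed region. Of the 4 Stat5a regions, the one at its downstream RefSeq start (chr11:100860223-100860623) was by far the most accessible, with 68.9, 74.1 and 72.0 CPM without and 79.7, 77.3 and 75.7 with SMARTA cells. Its fold of 0.11 ± 0.06 did not pass (edgeR adjusted p = 0.28). The closed region lay 22.1 kb past that start, 2.60 kb inside the far end of the gene (chr11:100882369-100882769), with 4.23, 3.84 and 4.55 CPM against 1.27, 2.04 and 2.69 (log2 fold -1.05 ± 0.26, edgeR adjusted p = 0.022). The next region towards Stat3, 0.80 kb on, measured 4.83, 4.58 and 5.62 against 2.39, 2.17 and 3.89 CPM and narrowly missed the threshold (-0.81 ± 0.24, edgeR adjusted p = 0.050). The Stat5a call was lost without any one library of the group without SMARTA cells (adjusted p = 0.059, 0.051 and 0.082).

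Of the 13 Stat5b regions, 1 closed, 0 opened and 12 did not pass by edgeR, with 2 of the 12 higher at an unadjusted p under 0.05, and both of these opened by DESeq2. The closed one, 8.38 kb past the upstream of its listed starts (chr11:100842004-100842404), measured 8.52, 9.80 and 11.8 CPM without and 5.25, 1.81 and 4.23 with SMARTA cells (log2 fold -1.40 ± 0.32, edgeR adjusted p = 0.016). The groups did not overlap, and the call was lost without replicate 3 of either group (0.063 and 0.053). At that upstream start (chr11:100850416-100850816) the libraries overlapped, with 37.2, 34.9 and 34.6 CPM against 33.8, 38.9 and 42.1. In 5 of the 13 regions (38.5%, against 15.7% of all regions) all libraries with SMARTA cells lay above those without. One of these, 1.56 kb before the downstream start, measured 15.6, 18.8 and 21.3 against 24.5, 24.7 and 27.6 CPM and did not pass by edgeR (0.46 ± 0.15, adjusted p = 0.064).

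Stat6, the transducer of interleukin-4 signals, was the one STAT member with an opened region, and that region was its start site (chr10:127642783-127643183), which covers 253 of the 300 bases printed above. It measured 51.4, 53.6 and 50.7 CPM without and 60.4, 62.3 and 61.9 with SMARTA cells. The groups did not overlap and each was tight, but the gain was small (log2 fold 0.25 ± 0.07, edgeR adjusted p = 0.041). The call was lost in each of the 6 fits without 1 library (adjusted p up to 0.17), under loess scaling (0.21) and total-count scaling (0.078), and by DESeq2 (0.10). The Stat6 region 12.4 kb into the gene had a negative fold, with 29.4, 27.1 and 28.4 CPM against 28.2, 20.9 and 20.8, and did not pass (edgeR adjusted p = 0.23).

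**Figure D3:**
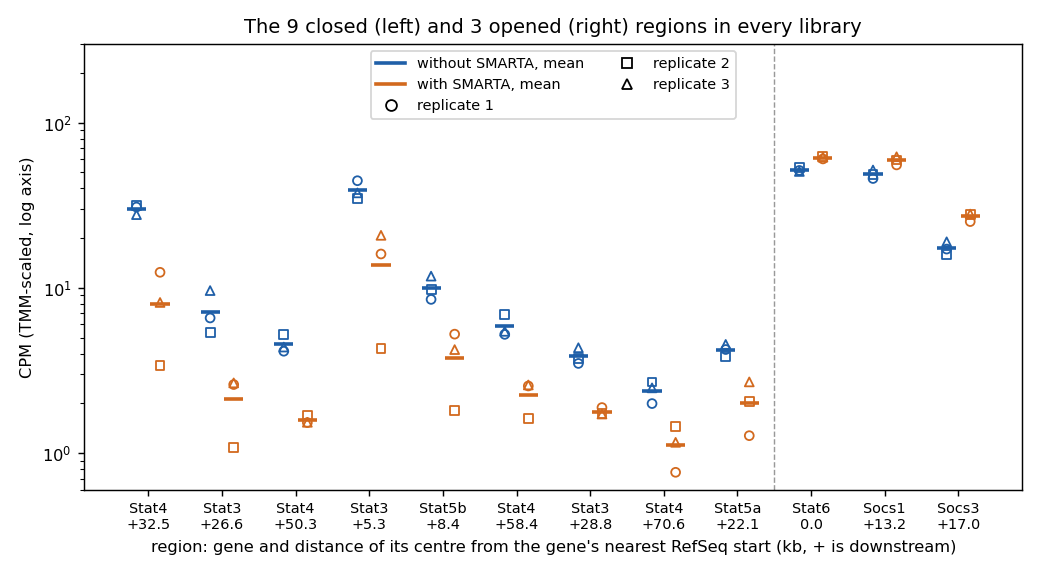
CPM (vertical axis, log scale) of the 9 closed and 3 opened member regions in each library, labelled on the horizontal axis by gene and by distance in kb from the gene's nearest RefSeq start, with symbols for replicates and bars for group means. In all 12 the libraries of one group lie above those of the other, and the closed regions separate by more than the opened ones.

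Among the feedback genes, Socs3, a brake on receptors of the interleukin-6 type, had the opened region with the smallest p. The region 13.5 kb beyond the gene on its downstream side (chr11:117952169-117952569) measured 17.2, 15.96 and 19.0 CPM without and 25.2, 28.0 and 28.0 with SMARTA cells. All libraries with SMARTA cells were higher, with a log2 fold of 0.64 ± 0.13 (edgeR adjusted p = 0.011). The call was lost when replicate 2 lacking SMARTA cells was left out (0.057), and 3 Socs3 regions opened without replicate 1 with SMARTA cells. The Socs3 start-site region (chr11:117969083-117969483), which covers 167 of the 300 printed bases and does not reach the marked match, measured 63.0, 62.6 and 60.9 CPM against 50.7, 80.3 and 84.2, so it overlapped between groups, with replicate 1 the lowest of those with SMARTA cells (edgeR adjusted p = 0.42). All 8 Socs3 folds were positive (median 0.30), also under the 3 other scalings, while 7 of the 8 did not pass.

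Socs2, known as a brake on growth hormone signalling and on STAT5, held 7 regions, of which 0 passed by edgeR (3 were higher and 0 lower at an unadjusted p under 0.05) and 0 by DESeq2, while 1 opened under loess scaling. All 7 folds were positive (median 0.53), also under the 3 other scalings. The most accessible one, 0.43 kb inside the gene boundary (chr10:95416687-95417087), measured 18.3, 19.9 and 19.2 CPM without and 25.97, 21.2 and 35.7 with SMARTA cells (0.53 ± 0.18, edgeR adjusted p = 0.077). The one 0.53 kb outside that boundary measured 3.54, 4.08 and 4.92 against 5.86, 5.65 and 7.60 CPM (0.61 ± 0.21, adjusted p = 0.078). In both the groups did not overlap, and without replicate 2 with SMARTA cells both opened (adjusted p = 0.0093 and 0.048).

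Socs1, the direct inhibitor of JAK kinases below interferon and interleukin-2 receptors, had, by the mean over libraries in each group, the most accessible start site of the 8 genes with a listed start. That region (chr16:10785266-10785666) measured 143, 130 and 133 CPM without and 139, 149 and 162 with SMARTA cells, overlapping between groups (edgeR adjusted p = 0.17). The opened Socs1 region lay 11.3 kb beyond the gene (chr16:10772101-10772501), with 46.0, 48.4 and 51.7 CPM against 55.6, 59.5 and 62.2. The groups did not overlap, the fold was small (0.28 ± 0.08, edgeR adjusted p = 0.044), and the call was kept in 1 of the 6 fits without 1 library (adjusted p from 0.060 to 0.13 in the others) and lost under loess scaling (0.15) and by DESeq2 (0.10).

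Cish, which is induced through STAT5 and restrains interleukin-2 and T cell receptor signals, held 6 regions, of which 0 passed by edgeR (1 was higher at an unadjusted p under 0.05) and 0 by DESeq2. Its start-site region (chr9:107296444-107296844), which covers both palindromes, measured 65.1, 62.3 and 64.9 CPM without and 61.3, 46.4 and 70.7 with SMARTA cells (-0.11 ± 0.13, edgeR adjusted p = 0.64). A region 1.65 kb downstream (chr9:107298109-107298509) measured 19.3, 18.9 and 18.1 against 28.1, 18.2 and 33.4 CPM. Replicates 1 and 3 with SMARTA cells were high there and replicate 2 was not, and that library was the lowest of its group in all 6 Cish regions. Without it this region (0.72, adjusted p = 0.0039) and one at 9.66 kb (0.52, 0.020) opened.

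Start sites and the regions away from them were also counted apart. Of the 12 member regions within 1 kb of a listed start of their own gene, 0 closed and 1 opened by edgeR (Stat6), with none lower and 2 higher at an unadjusted p under 0.05 and 0 called by DESeq2. Of all 12172 regions within 1 kb of a RefSeq start, 3.0% closed and 5.92% opened (8.92% in either direction). Of the 62 member regions beyond 1 kb of the listed starts of their own gene, Socs2 left out, 9 closed (14.5%) and 2 opened (3.23%). Their median log2 fold was -0.18. Among them, 9 of the 46 STAT regions closed (19.6%) and 0 opened by edgeR, with 2 higher at an unadjusted p under 0.05 and 2 opened by DESeq2. All regions were split by distance to any RefSeq start and members by distance to their own, so the classes are not fully alike. Of the 36372 regions inside any gene and beyond 1 kb of any RefSeq start, 11.1% closed and 4.7% opened (15.9% in either direction). Their median log2 fold was -0.01, against -0.30 for the 46 STAT regions. Of the 62 member regions 18 lie outside genes, as do 3 of the 46. Of the 26142 regions outside genes and beyond 1 kb of any RefSeq start, 12.8% closed and 4.08% opened (16.9% in either direction, median log2 fold -0.02).

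The share of a gene's counts that falls beyond 1 kb of its starts does not change with 1 scaling factor per library. A scaling that varies with abundance, such as loess, could change it and was not applied to it. The share was added as a measure after the values were seen. For Stat3 this share was 54.4%, 51.5% and 54.0% without and 42.2%, 28.1% and 44.4% with SMARTA cells. The groups did not overlap, with means of 53.3% ± 1.6 and 38.2% ± 8.8 (SD, n = 3 each), and the difference was -15.1 percentage points, or -10.0 without replicate 2 with SMARTA cells. Stat5a (16.7% ± 1.0 to 11.1% ± 2.1), Stat6 (36.7% ± 1.6 to 28.6% ± 3.5) and, in the other direction, Socs3 (44.6% ± 1.1 to 49.2% ± 2.5) did not overlap between groups either. The share of Stat4, with 1 region near a start, was 90.4% ± 1.4 and 89.0% ± 0.50, and those of Stat5b, Cish and Socs1 differed by 1.64, 1.89 and -0.97 points, with overlapping groups in each. How often the groups separate on this share among all genes was not computed. Over all regions within 1 kb of a RefSeq start the median log2 fold was 0.09. Beyond 1 kb it was -0.01 inside genes and -0.02 outside them. Exact two-sided permutation tests gave p = 0.10 for Stat3, Stat5a, Stat6 and Socs3, the smallest that 3 against 3 libraries allow, and 0.20 after adjustment over the 8 genes. Groups of 3 that do not overlap always give this smallest p, so the tests could not pass and only restate the separation.

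**Figure D4:**
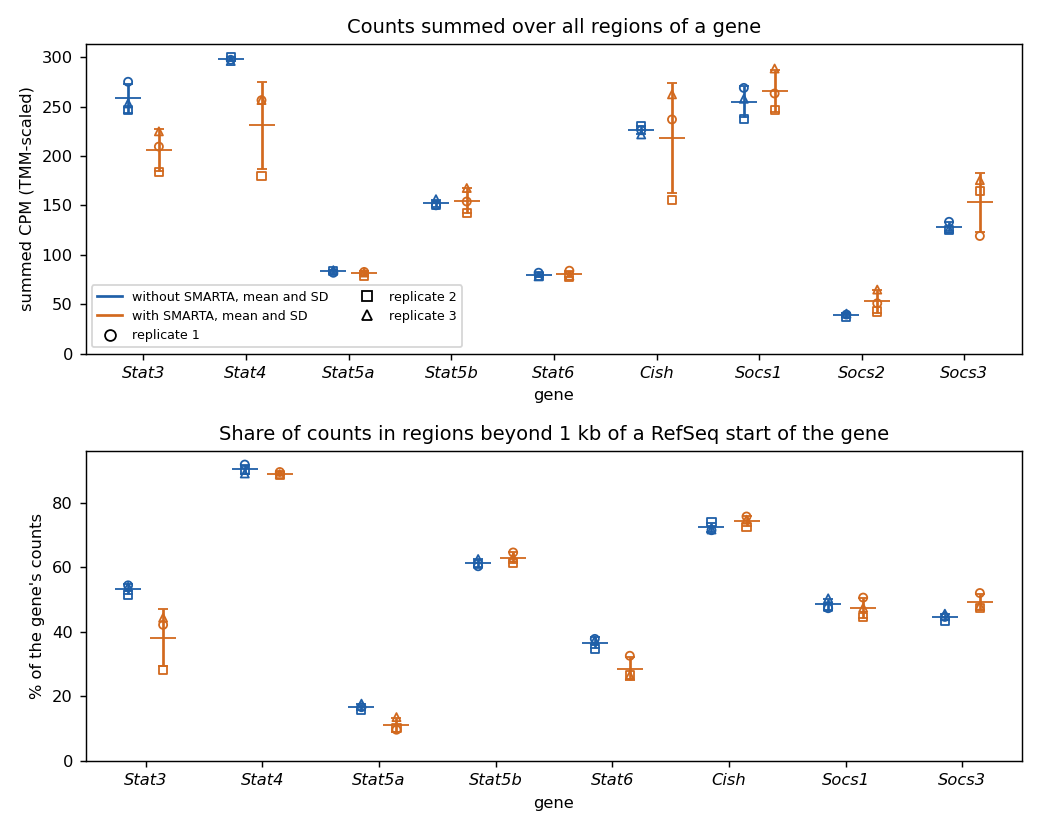
Top, CPM summed over all regions of each of the 9 genes, and bottom, the percent of a gene's counts beyond 1 kb of its RefSeq starts for the 8 genes with a listed start (horizontal axes, genes), where symbols are libraries and bars show the mean and SD of 3. The Stat3 and Stat4 sums lie lower and the Socs2 sums higher in every library with SMARTA cells, and the mean Stat3 share is 53.3% without and 38.2% with them.

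Summed over all its regions, none of the 9 genes passed when the sums of 15962 genes were tested with edgeR (0 lower and 0 higher, against 5.63% lower and 1.97% higher of all genes). Stat3 came closest, with 275, 247 and 253 CPM without and 210, 184 and 225 with SMARTA cells (log2 fold -0.33 ± 0.09, adjusted p = 0.055). Stat4 measured 297, 300 and 296 against 257, 180 and 257 (-0.37 ± 0.12, edgeR adjusted p = 0.11), and Socs2 39.5, 37.0 and 40.4 against 50.9, 42.6 and 64.8 (0.44 ± 0.13, 0.078). These 3 had an unadjusted p under 0.05, did not overlap between groups, and passed by DESeq2 (adjusted p = 0.0048, 0.028 and 0.026). The shares of all 15962 genes that do so were not counted. Socs3 had a fold of 0.26 ± 0.13 (edgeR adjusted p = 0.24), and 0.40 with adjusted p = 0.012 without replicate 1 with SMARTA cells. The sums of Stat5a, Stat5b, Stat6, Cish and Socs1 differed by -0.05 to 0.06, with SE from 0.05 to 0.16. Without replicate 2 with SMARTA cells, Stat4 (-0.22, edgeR adjusted p = 0.046) and Socs2 (0.57, 0.0099) passed, while Stat3 did not (-0.25, 0.059).

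The authors' peak lists, called in each library, gave a second view of the same reads. Of the 81 regions, 54 had an overlapping peak in all 6 lists. Fewer lists with than without SMARTA cells had a peak at 17 of the 81, more at 6 and as many at 58. Such counts were not made over all regions. The closed regions were picked on counts of these same reads, so fewer peaks there give no separate support. At 8 of the 9 closed regions fewer lists with SMARTA cells had a peak than lists without. In those at 5.28 and 26.6 kb in Stat3, at 58.4 kb in Stat4 and in Stat5b, 1 list alone lacked a peak. That list was of replicate 2 with SMARTA cells, the library with the fewest counts. The exception among the 9 was the Stat4 region at 32.5 kb, with a peak in all 6. There the authors' fold enrichment over local background was 10.2, 9.33 and 9.51 without and 5.98, 3.22 and 4.21 with SMARTA cells. The Stat4 region at 50.3 kb had a peak in 3 of 3 lists without and 0 of 3 with SMARTA cells. Socs2 showed the reverse at 3 of its 7 regions, which had peaks in more lists with SMARTA cells, among them the one 0.53 kb outside the gene boundary (1 of 3 lists without and 3 of 3 with). With a peak required to cover at least 50% of the region, that region had one in 0 of 3 lists of either group.

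In the wider pathway, the 4 JAK kinases held 6 closed and 4 opened of 59 regions (10.2% and 6.78%, against 10.4% and 4.68% of all regions; median log2 fold 0.04), 8 of these 10 at Jak1, the kinase shared by most of these receptors (4 closed and 4 opened of 35). The other SOCS, PIAS and phosphatase inhibitors held 8 closed and 6 opened of 75 regions (10.7% and 8.0%; median -0.02). Among them Socs5 closed at 2 of 5 regions, by -2.02 ± 0.21 at the strongest (edgeR adjusted p = 0.00040), Ptpn11, which encodes the phosphatase SHP-2, at 4 of 10 (-3.23 ± 0.33 at the strongest, 0.00035), and Ptpn2, a phosphatase of JAKs and STATs, held 4 opened and 1 closed of 13.

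The 21 cytokine receptor chains held 26 closed and 11 opened of 212 regions (12.3% and 5.19%; median -0.03). Il6ra, the interleukin-6 receptor, held 2 of each among 9 regions, Il10ra, the interleukin-10 receptor, closed at 3 of 8, and Il12rb2, the signalling chain above STAT4, closed at 5 and opened at 1 of 22. The 17 genes known as STAT targets held 45 closed and 8 opened of 245 regions (18.4% and 3.27%, against 10.4% and 4.68% of all regions; median -0.12). Among genes of at least 5 regions the largest shares called were those of Prf1, which encodes perforin (2 closed and 1 opened of 6), the cyclin gene Ccnd2 (5 and 1 of 15) and Ifng (10 and 1 of 33). The lists were not tested as lists, and Il12rb2 and Ifng were known from earlier results of these data to hold closed regions.

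The genes whose libraries ranked most like Stat4, the member with the most calls, were Plac8, Coro1a and Il12rb2. The measure was Pearson's r over 6 libraries between means of centred log2 CPM over a gene's regions, with r = 0.998, 0.993 and 0.991 among 4956 genes of at least 5 regions. An r over 0.9 was reached by 433 of these genes (8.74%), and all profiles share the same libraries, so the likeness describes these samples. Stat4 itself ran 0.28, 0.29 and 0.21 above its mean without SMARTA cells and at -0.17, -0.55 and -0.06 with them, replicate 2 being the lowest.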

How the data were processed

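Whole-number read counts per region, not normalized, were deposited by the authors for 6 libraries, with a peak list per library that gives each peak's fold enrichment, a ratio over local background, per the file columns. Per the submitters' processing notes, the tools were DiffBind 3.4.11, MACS2 2.1.1, Picard 2.18.9, SAMtools 1.8 and BWA 0.7.17, on GRCm38, with no roles. How duplicates, the transposase offset and counting were handled was not given in the sources used here; duplicate reads, if kept, raise counts without adding molecules.

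Regions were assigned with RefSeq gene intervals of GRCm38.p6, and starts came from the RefSeq promoter table, in which 8 of the 9 members matched. Most regions are 401 bases long. Counts were tested with edgeR 4.0.16 (R 4.3.3): TMM, filterByExpr, which removed no region, glmQLFit, glmQLFTest and Benjamini-Hochberg adjustment over all regions, or over all genes for summed counts. The SE is the fold divided by the root of F. CPM are TMM-scaled. No 2 libraries of a group agreed within counting noise (lowest chi-square per degree of freedom 2.76). Code was tested on simulated data. DESeq2 1.42.0, other scalings, filters, assignments and left-out libraries were alternatives. The members and lists were chosen with earlier results of these data known. Regions named for each gene are those past the threshold, the smallest p, the most accessible and the one nearest to a boundary or start; 3 genes a list are named by share of regions called, among those with at least 5 regions, and others were named after their values were seen. 1 list of pathway genes is not reported here.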

Additional observations from a re-analysis of the deposited data

How the results depend on the processing

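Closed member regions numbered 9 with DESeq2 size factors, no filter, a 20 kb window and gene bodies only, 10 by DESeq2's test and with a mean count of at least 50, 11 with total-count or loess scaling, 5 at an adjusted p of 0.01, and 5 to 12 when 1 library was left out. Opened ones numbered 3 with DESeq2 size factors, no filter and a 20 kb window, 3 by DESeq2's test (2 at Stat5b and 1 at Socs3, with those at Stat6 and Socs1 lost), 2 with loess scaling, 1 with total-count scaling, with a mean count of at least 50 and in gene bodies only, 0 at an adjusted p of 0.01, and 0 to 5 when 1 library was left out. Over summed counts, 1 gene passed lower with total-count scaling and 2 by DESeq2; 1 passed higher by DESeq2 and with scaling factors taken from the regions; and 0 to 1 passed in each direction when 1 library was left out. Same-numbered libraries of the 2 groups had deviations from their group means with r of -0.02, -0.08 and 0.08. These values cannot settle whether they shared an animal or day, which the labels do not say. With the replicate block 11 member regions closed, 2 opened, and 1 summed gene (Socs2) passed higher. Among summed folds, none of which passed in these settings, Stat5a turned to 0.012 with scaling factors from the regions, and leaving out 1 library gave -0.040 to 0.076 for Stat5b (negative without replicate 3 with SMARTA cells), -0.025 to 0.035 for Stat6 (negative without replicate 1 with them) and -0.20 to 0.14 for Cish (positive without replicate 2 with them). With a peak required to cover at least 50% of a region, 42 regions had one in all 6 lists. Closed regions held 15 to 556 counts per library with SMARTA cells, so depth limits the precision of the weakest. The shares of all regions or genes called under these alternatives were not counted, except for regions without replicate 2 with SMARTA cells. The member counts under them are therefore descriptive.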
